A study of Mus musculus with 12 samples.

Results

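Hepacam2, Sema3f, Cyp2b10 and Crim1 are 4 of the 14219 genes measured in plasma cells of mouse bone marrow, and they were picked because their RNA was higher at day 270 than at day 60. The day comparison therefore chose them: their day differences are given as a description, without a test. The mice were C57BL/6 and of the genotype BLTcre.mcl1fl/+, in which tamoxifen turns on a reporter that puts human CD4 on cells. The 4 groups, each with 3 libraries, were human CD4+ plasma cells at day 270 after tamoxifen, human CD4- plasma cells at day 270, human CD4+ plasma cells at day 60 and human CD4- plasma cells at day 60. All groups, human CD4- cells included, came from mice with the Cre, 1 floxed Mcl1 allele and the tamoxifen treatment. The genotype does not show whether the floxed Mcl1 allele was still whole in human CD4+ cells, and this was not tested. The mark and a loss of that allele therefore cannot be told apart here. The sources used here give neither the promoter behind the Cre nor the age of the mice nor how the sort was gated. Age and time since tamoxifen cannot be told apart, and each day has its own specimens. Within a day the human CD4+ and human CD4- libraries share a specimen number in the labels, which gives 6 specimens. Nothing in the labels says that each specimen is 1 mouse, so the spread between libraries is that between specimens of unknown makeup.

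Hepacam2 encodes a transmembrane adhesion protein of the immunoglobulin superfamily. Sema3f encodes a secreted class 3 semaphorin, a guidance cue that binds neuropilins, above all neuropilin 2, which pair with plexins to pass the signal on. Cyp2b10 encodes a cytochrome P450 of the endoplasmic reticulum, best known in mouse liver, where phenobarbital induces it through the nuclear receptor CAR (Nr1i3), and it takes electrons from the reductase Por. Crim1 encodes a transmembrane protein with cysteine-rich repeats that binds bone morphogenetic proteins (BMPs) and limits their processing and delivery. Plasma cells are the end stage of the B lineage and secrete antibody. In bone marrow some of them live long, and this survival depends on the protein Mcl1.

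The promoters of the members are shown so that their make-up can be set beside the day pattern that the genes share. RefSeq (GRCm38.p6) gave a window of 250 bases before to 50 bases after the start site for 3 of the 4 genes, Hepacam2, Cyp2b10 and Crim1. Each is written 5′ to 3′ on the strand of the gene, with the motif matches described after them in capitals.
Hepacam2, chr6:3494449-3494748, minus strand: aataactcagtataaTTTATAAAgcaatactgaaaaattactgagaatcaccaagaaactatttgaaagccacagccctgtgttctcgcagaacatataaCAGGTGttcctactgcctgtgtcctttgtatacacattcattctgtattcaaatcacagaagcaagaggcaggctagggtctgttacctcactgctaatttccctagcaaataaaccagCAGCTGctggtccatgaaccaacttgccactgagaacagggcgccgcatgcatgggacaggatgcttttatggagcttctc
Cyp2b10, chr7:25897408-25897707, plus strand: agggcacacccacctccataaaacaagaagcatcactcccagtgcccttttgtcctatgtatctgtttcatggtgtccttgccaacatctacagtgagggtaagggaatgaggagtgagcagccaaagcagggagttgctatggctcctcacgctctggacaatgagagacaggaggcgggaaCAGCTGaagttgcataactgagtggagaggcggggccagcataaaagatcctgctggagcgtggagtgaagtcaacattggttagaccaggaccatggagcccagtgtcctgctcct
Crim1, chr17:78199998-78200297, plus strand: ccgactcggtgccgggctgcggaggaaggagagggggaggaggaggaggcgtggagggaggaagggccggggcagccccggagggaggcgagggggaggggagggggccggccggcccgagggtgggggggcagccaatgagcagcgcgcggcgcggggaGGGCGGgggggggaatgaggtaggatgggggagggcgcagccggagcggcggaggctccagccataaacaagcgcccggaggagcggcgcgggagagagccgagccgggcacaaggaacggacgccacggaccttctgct
The Crim1 window was rich in G and C, at 76.0%, with 31 CpG pairs, and 96.9% of the 32851 RefSeq promoters of this length had a lower GC share. The Hepacam2 window had a GC share of 43.0% and 3 CpG pairs, and 16.5% of promoters had a lower share. The Cyp2b10 window lay in the middle, with a GC share of 53.0% and 4 CpG pairs. Across all these promoters the median GC share was 52.7% and the median number of CpG pairs was 7.

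Of 6 short motifs searched on both strands, no motif occurred in all 3 windows. TATAAA, the core of the TATA box, began 233 bases before the Hepacam2 start site, with an overlapping match on the other strand, and 13.6% of all promoters hold it. CAGNTG, a form of the E-box, began 150 and 31 bases before the start site of Hepacam2 and 67 bases before that of Cyp2b10, and 51.4% of promoters hold it. The matches at 31 and 67 bases are palindromes, so they match on both strands. GGGCGG, the GC box, began 90 bases before the start site of Crim1, and 35.7% of promoters hold it. AGGTCA (a nuclear receptor half-site), ACGTGG (a core bound by Xbp1) and GAAAGT (a core bound by Blimp-1, the product of Prdm1) matched none of the 3 windows and occurred in 16.3%, 8.31% and 14.3% of promoters. The RefSeq start site of Hepacam2 used here lies 3800 bases inside the outermost start of the gene in the GENCODE M21 annotation, so the window covers 1 of the starts that the gene may use.

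The libraries held 7449468 to 15943547 reads on the genes of the table, and 11022 to 13506 genes had at least 1 read. Library 2 of the day 270 human CD4+ cells stood apart, with 30.5% of its reads on ribosomal RNA-like features (a set chosen after the values were seen) and the fewest genes with a read. It was also the library with the highest level of Hepacam2, Sema3f and Cyp2b10, so values without it are given. Library 2 of the day 60 human CD4+ cells had 12.1% of its reads on these features, and the remaining libraries had 0.28% to 3.26%. Plasma cell genes were high in all 12 libraries: the syndecan Sdc1 (CD138) lay at 1748 to 2342 CPM (reads of the gene scaled to a common total per library, as deposited), the transcription factor Xbp1 at 3931 to 6134 CPM, Irf4 at 551 to 1061 CPM and Prdm1 at 129 to 335 CPM. Jchain, which joins secreted IgA and IgM, took 7.90% to 31.3% of the reads. The BCMA gene Tnfrsf17 lay at 275 to 405 CPM. Mcl1 averaged 438 ± 66.7 CPM in human CD4+ cells and 555 ± 31.7 CPM in human CD4- cells at day 270, and 414 ± 85.6 CPM in human CD4+ cells and 520 ± 32.2 CPM in human CD4- cells at day 60 (SD, n = 3). The log2 difference of human CD4+ minus human CD4- cells over both days was -0.35 for Mcl1 and missed the threshold (limma, adjusted p = 0.156). The same held for the other 6 genes named here, with adjusted p of 0.204 to 0.925.

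Hepacam2 (ENSMUSG00000044156, GRCm38 chromosome 6, 3457096 to 3498298, minus strand) was the most abundant of the 4. At day 270 the human CD4+ libraries 1, 2 and 3 had 140.4, 255.9 and 232.4 CPM, and the human CD4- libraries had 167.2, 217.3 and 159.6 CPM. At day 60 the human CD4+ libraries had 85.1, 62.6 and 74.1 CPM and the human CD4- libraries had 101.3, 77.6 and 70.6 CPM. The lowest day 270 library lay above the highest day 60 library in each population and across both, with no overlap. Means were 209.6 ± 61.0 and 181 ± 31.3 CPM in day 270 human CD4+ and human CD4- cells and 73.9 ± 11.3 and 83.2 ± 16.1 CPM in their day 60 counterparts (SD, n = 3). In the order of group means, the neighbours of the same day did not differ beyond their spread. A step between the days was favoured by the choice of the genes, so nothing is read from it for any member.

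Sema3f (ENSMUSG00000034684, chromosome 9, 107681500 to 107710475, minus strand) was low at day 60. The human CD4+ libraries had 10.035, 25.8 and 22.1 CPM and the human CD4- libraries 7.27, 6.74 and 13.3 CPM at day 270. At day 60 there were 0.89, 0.60 and 5.01 CPM in human CD4+ libraries and 1.32, 1.29 and 0.69 CPM in human CD4- libraries, 5 to 56 reads and 10 to 15 reads. One day 60 library, human CD4+ library 3, thus held 56 of the 72 reads of its group and lay not far under the lowest day 270 library, at 6.74 CPM. Group means were 19.3 ± 8.23 and 9.11 ± 3.66 CPM in day 270 human CD4+ and human CD4- cells and 2.16 ± 2.47 and 1.10 ± 0.35 CPM in day 60 human CD4+ and human CD4- cells (SD, n = 3). Again the 2 populations of a day overlapped while the days did not.

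Cyp2b10 (ENSMUSG00000030483, chromosome 7, 25897620 to 25926624, plus strand) varied most in relative terms in the day 270 human CD4+ and the day 60 human CD4- cells. At day 270 it had 6.08, 38.5 and 15.1 CPM in human CD4+ libraries and 3.87, 8.28 and 5.59 CPM in human CD4- libraries. At day 60 it had 0.57, 2.02 and 1.52 CPM in human CD4+ libraries and 0.088, 1.20 and 0 CPM in human CD4- libraries. The day 60 values rest on 7, 17 and 17 reads and on 1, 14 and 0 reads, and 0 reads in human CD4- library 3 allows a level of up to 0.206 CPM (3 reads, counting error only). The days did not overlap in either population, the 2 populations of a day did, and the highest day 60 library (2.02 CPM) was under the lowest day 270 library (3.87 CPM). Group means were 19.9 ± 16.7 and 5.91 ± 2.22 CPM in day 270 human CD4+ and human CD4- cells and 1.37 ± 0.74 and 0.43 ± 0.67 CPM in day 60 human CD4+ and human CD4- cells (SD, n = 3). In the day 270 human CD4+ cells the SD was 84.0% of the mean, through the 38.5 CPM of library 2.

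Crim1 (ENSMUSG00000024074, chromosome 17, 78200248 to 78376592, plus strand) had 17.0, 31.1 and 15.1 CPM in human CD4+ libraries and 23.8, 34.2 and 12.7 CPM in human CD4- libraries at day 270. At day 60 it had 7.20, 6.66 and 4.74 CPM in human CD4+ libraries and 7.46, 4.29 and 3.37 CPM in human CD4- libraries. All day 270 libraries were above all day 60 libraries, and the 2 populations of each day overlapped. Group means were 21.1 ± 8.75 and 23.6 ± 10.8 CPM in day 270 human CD4+ and human CD4- cells and 6.20 ± 1.29 and 5.04 ± 2.14 CPM in day 60 human CD4+ and human CD4- cells (SD, n = 3). Crim1 was the one member with a higher mean in human CD4- than in human CD4+ cells at day 270. It lies over Fez2 on the other strand, and the sources used here do not say whether the counting used strand, so reads of the 2 genes cannot be told apart where they overlap.

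**Figure D1:**
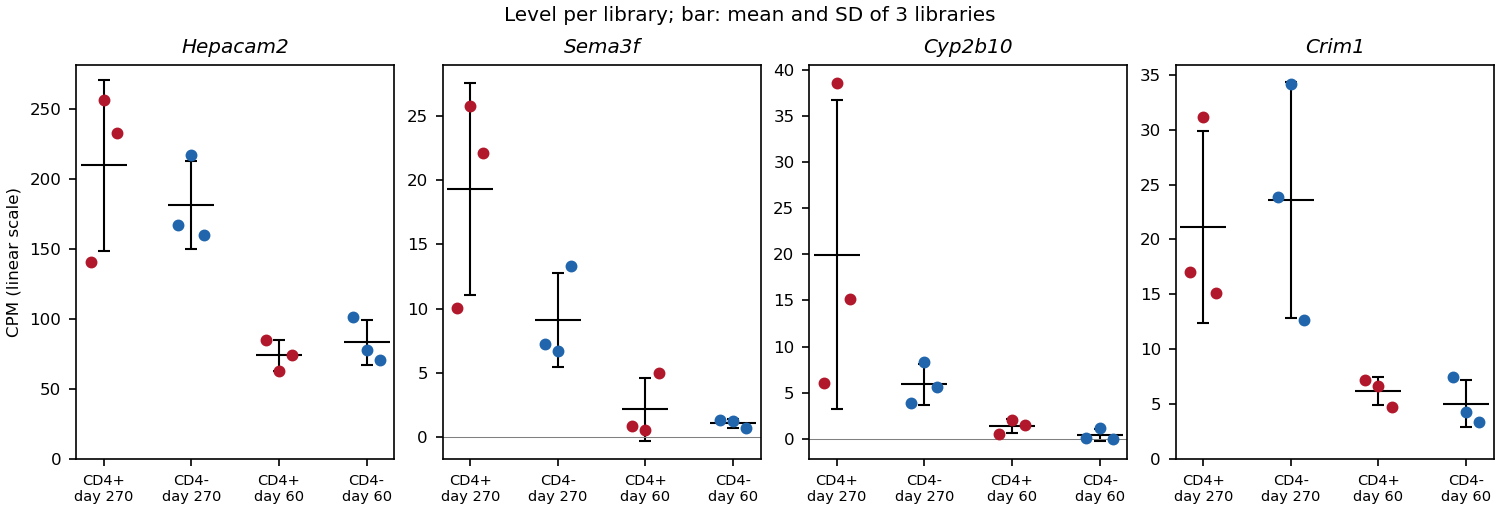
CPM per library on a linear axis for the 4 genes, with human CD4+ (red) and human CD4- (blue) libraries of day 270 left of those of day 60. Long lines are means and error bars are SDs of 3 libraries. The lowest day 270 library stands above the highest day 60 library in each panel, at 140.4 against 101.3 CPM for Hepacam2, 6.74 against 5.01 CPM for Sema3f, 3.87 against 2.02 CPM for Cyp2b10 and 12.7 against 7.46 CPM for Crim1.

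Per kilobase of exon, the mean level over all 12 libraries was 23.3 CPM per kilobase for Hepacam2, above 85.9% of the 12666 tested genes with a known length. Cyp2b10 (3.27 CPM per kilobase, above 45.5%), Crim1 (2.33 CPM per kilobase, above 37.7%) and Sema3f (1.52 CPM per kilobase, above 28.7%) lay in the middle and the lower part of the range. In bulk libraries, fewer cells that express a gene and less RNA per cell cannot be told apart, and this holds for each level here.

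The 4 genes passed the filter on low values, which kept 12704 genes, and for each the 6 day 270 libraries were above the 6 day 60 libraries. Such separation was found in 0.512% of tested genes. It was found in 6.46% of genes within human CD4+ cells, 10.4% within human CD4- cells and 1.46% in both populations taken separately. Since the members were picked on this contrast, nothing is read from these counts. The fitted log2 differences of day 270 minus day 60, on the log2(CPM + 0.5) scale, were 3.18 ± 0.71 in human CD4+ and 2.95 ± 0.71 in human CD4- cells for Cyp2b10 (SE). They were 3.18 ± 0.64 and 2.55 ± 0.64 for Sema3f, 1.64 ± 0.46 and 2.08 ± 0.46 for Crim1, and 1.46 ± 0.23 and 1.12 ± 0.23 for Hepacam2, human CD4+ cells first. The 0.5 added to each value can understate the change of rare genes, and the fit averages log values. The ratio of mean CPM was 14.6 in human CD4+ and 13.7 in human CD4- cells for Cyp2b10, where the fitted folds were 9.05 and 7.75. For Sema3f the ratios were 8.92 and 8.31 beside fitted folds of 9.07 and 5.86, so the human CD4- ratio alone was the larger. For Hepacam2 the ratios of means were 2.83 and 2.18, close to the fitted folds of 2.75 and 2.18.

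Ordered by the difference averaged over both populations, Cyp2b10 (3.07) was first and Sema3f (2.87) second of the 12704 genes, Crim1 (1.86) was at place 35 and Hepacam2 (1.29) at place 167. Scaling by total reads put the median of all genes 0.11 (log2) higher in this contrast than TMM scaling, and 0.12 lower in that of human CD4+ minus human CD4- cells. With TMM scaling the averaged differences of the members were 2.98 for Cyp2b10, 2.78 for Sema3f, 1.75 for Crim1 and 1.18 for Hepacam2. Single libraries moved the sparser genes. Without library 2 of the day 270 human CD4+ cells the difference in human CD4+ cells was 2.53 for Cyp2b10, without library 1 of that group it was 3.81, and without library 3 of the day 60 human CD4+ cells it was 3.90 for Sema3f. Without both day 270 libraries of the specimen of replicate 2, the averaged differences were 2.61 for Cyp2b10, 2.82 for Sema3f, 1.54 for Crim1 and 1.14 for Hepacam2.

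**Figure D2:**
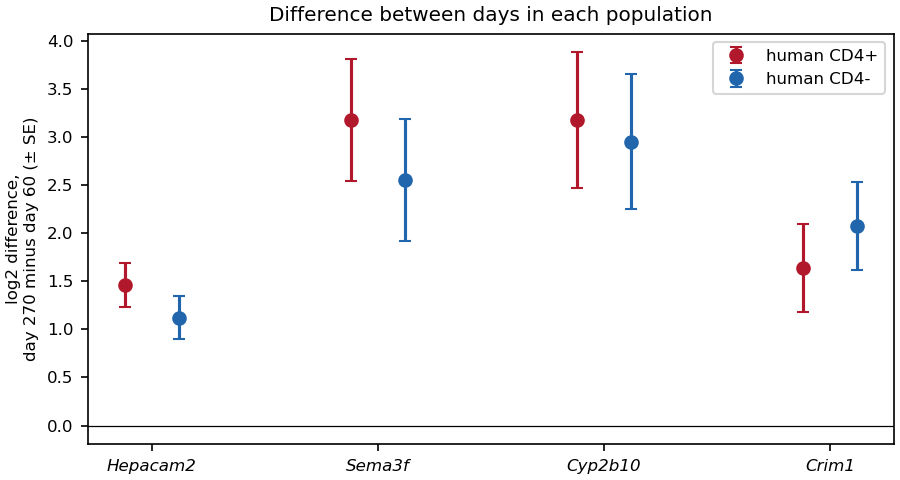
Fitted log2 difference of day 270 minus day 60 (log2(CPM + 0.5) scale) for each gene in human CD4+ (red) and human CD4- (blue) cells, with error bars of 1 SE from the limma fit over 12 libraries. The differences run from 1.12 for Hepacam2 in human CD4- cells to 3.18 for Sema3f and Cyp2b10 in human CD4+ cells, and the bars of the 2 populations overlap for each gene.

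The libraries carry numbers in their labels, 5 to 8 for replicate 1 of each group and 13 to 27 for the others, and each set holds all groups. Within each set and population the day 270 numbers lie under the day 60 numbers. The order of the numbers and the day therefore cannot be told apart. In the replicate 1 libraries alone, day 270 minus day 60 was 0.72 in both populations for Hepacam2, and in replicates 2 and 3 it was 1.83 in human CD4+ and 1.33 in human CD4- cells. The values in replicate 1 were 2.92 and 2.10 for Sema3f, 2.63 and 2.89 for Cyp2b10 and 1.18 and 1.61 for Crim1, human CD4+ cells first. In replicates 2 and 3 they were 3.31 and 2.78 for Sema3f, 3.45 and 2.99 for Cyp2b10 and 1.86 and 2.31 for Crim1. The size was smaller in replicate 1 for each gene. The direction could not differ between the sets, since all day 270 libraries of these picked genes lay above all day 60 libraries.

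The authors' deposited table of day 270 human CD4+ against day 60 human CD4- cells lists 3 of the members. Its log2 fold changes are 6.03 for Cyp2b10, 3.82 for Sema3f and 1.23 for Hepacam2 in the authors' deposited table. Crim1 is in neither this authors' deposited table of 265 genes nor in that of 230 genes, although in the CPM values its day 270 and day 60 libraries are as fully separated as those of the other 3.

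Across the 12 libraries the log2 levels of the members ran together, with Pearson correlations between pairs of 0.76 (Sema3f and Crim1) to 0.91 (Hepacam2 and Crim1). The libraries share the day difference by which the genes were picked. After subtraction of the group means the correlations were weaker, between -0.22 for Sema3f and Crim1 and 0.62 for Hepacam2 and Crim1, over the same 12 libraries. The day 270 specimen of replicate 2 had the highest level of Hepacam2, Cyp2b10 and Crim1 in both populations. For Sema3f it was the highest in human CD4+ cells, at 25.8 CPM, but in human CD4- cells it was the lowest, at 6.74 CPM. The specimen of replicate 3 had the lowest Crim1 of day 270 in both populations, 15.1 and 12.7 CPM, while its Sema3f in human CD4- cells was the highest, at 13.3 CPM.

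Whether the members also differ between human CD4+ and human CD4- cells is a contrast that the choice of genes did not use, and it was tested with limma over all 12704 genes. The change of this contrast between days is less free of the choice. The genes were picked as higher at day 270 in both populations, which disfavours genes that change in 1 population alone. None of the 4 passed an adjusted p of 0.05, over both days, at either day, or in the difference between days. Over both days 0.338% of tested genes were called higher and 1.5% lower in human CD4+ cells. At day 270 these shares were 0.0472% and 0.433%, at day 60 they were 0.0394% and 0.15%, and in the difference between days both were 0%, with 387 genes at an unadjusted p under 0.05, 0 called by edgeR and 5 by DESeq2. The 24 genes called at day 60 were 38 with the specimen as a block. With TMM scaling more of the calls were on the higher side, 112 higher and 186 lower over both days, in place of 43 and 191, 22 and 67 at day 270, in place of 6 and 55, and 12 and 22 at day 60, in place of 5 and 19. Of the members, 1 had an unadjusted p under 0.05 over both days (Cyp2b10) and 0 in the other 3 contrasts, and edgeR, DESeq2 and limma-voom called 0 of 4 in each contrast.

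Cyp2b10 had the largest estimate of the 4. Human CD4+ minus human CD4- cells was 1.26 ± 0.50 (SE) on the log2(CPM + 0.5) scale over both days, with a 95% interval of 0.21 to 2.31, an unadjusted p of 0.0214 and an adjusted p of 0.216 (limma). The human CD4+ library was the higher one in 6 of 6 specimens, a pattern found in 1.85% of tested genes. Over the 24 other settings tried for this contrast the adjusted p ran from 0.0584, with DESeq2, to 0.405. In replicate 1 alone the difference was 0.73 and in replicates 2 and 3 it was 1.52. In each specimen, replicate 1 included, the human CD4- library has the lower library number. In replicates 2 and 3 all human CD4- numbers lie under all human CD4+ numbers. The order of the numbers and the population therefore cannot be told apart. At day 270 the difference was 1.37 (interval -0.11 to 2.85, adjusted p = 0.395 with limma) and at day 60 it was 1.15 (interval -0.34 to 2.63, adjusted p = 0.873 with limma). The authors' deposited table of day 60 gives 2.96 for the log2 fold change of Cyp2b10, with an FDR of 0.773.

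For Sema3f, human CD4+ minus human CD4- cells was 0.69 ± 0.45 over both days on the log2 scale (SE), with a 95% interval of -0.26 to 1.63 and an adjusted p of 0.463 (limma). Its difference was 1.002 at day 270 and 0.37 at day 60, and the human CD4+ library was higher in 4 of 6 specimens. In replicate 1 alone it was 0.03 and in replicates 2 and 3 it was 1.02. Without library 3 of the day 60 human CD4+ cells the day 60 value was -0.35. The authors' deposited table of day 60 gives 0.67 for Sema3f, with an FDR of 0.964.

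Hepacam2 differed between human CD4+ and human CD4- cells by 0.01 ± 0.16 over both days (SE, 95% interval -0.33 to 0.34, adjusted p = 0.987 with limma). For Crim1 the difference was 0.10 ± 0.32 (SE, interval -0.58 to 0.78, adjusted p = 0.904 with limma). For each of these, the human CD4+ library was higher in 3 of 6 specimens. The authors' deposited table of day 60 gives -0.018 for Hepacam2 (FDR 0.992) and 0.48 for Crim1 (FDR 0.940). The test of whether the marking difference itself changed between days gave 0.34 for Hepacam2, 0.63 for Sema3f, 0.22 for Cyp2b10 and -0.44 for Crim1, each with an adjusted p of 0.9999 (limma). The 95% intervals ran from -0.34 to 1.01 for Hepacam2, -1.26 to 2.52 for Sema3f, -1.87 to 2.32 for Cyp2b10 and -1.80 to 0.92 for Crim1, so for Sema3f and Cyp2b10 a difference of several fold in either direction lies within them.

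**Figure D3:**
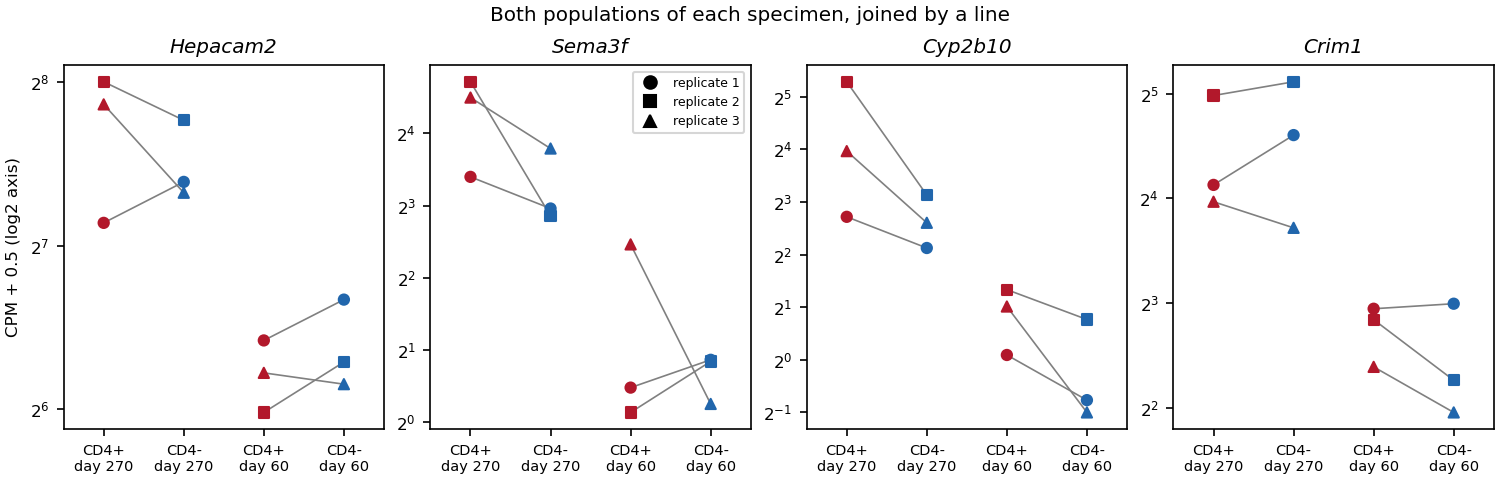
CPM + 0.5 on a log2 axis, with the human CD4+ (red) and human CD4- (blue) library of each specimen joined by a line, day 270 left of day 60, and a symbol per replicate number. For Cyp2b10 the 6 lines fall to the right, with human CD4+ higher in each specimen, and for Hepacam2 and Crim1 3 of 6 lines do.

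Markers of red cells differed between the populations alongside these contrasts. Of 8 erythroid markers tested, 4 were called higher in human CD4+ cells over both days (limma, adjusted p under 0.05; 2 to 4 over the other settings), and the sum of the list ran from 185 to 802 CPM in human CD4+ and from 30.2 to 169 CPM in human CD4- cells at day 270. At day 60 it ran from 107 to 350.5 CPM in human CD4+ and from 38.9 to 69.0 CPM in human CD4- cells. Of 12 B cell markers, 3 were called lower in human CD4+ cells by limma (1 to 3 over the other settings, and 2 by edgeR, DESeq2 and limma-voom). Their part in the Cyp2b10 and Sema3f values was not tested.

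The partners of each member were then counted. Between days, with both populations averaged, 0.181% of tested genes were called higher and 0.00787% lower at day 270 (limma), 23 and 1 genes, or 18 and 3 with TMM scaling. Of the semaphorins, neuropilins and plexins other than Sema3f, 21 of 30 were in the table, 16 could be tested and 0 were called between days, while 3 had an unadjusted p under 0.05, as did 8.53% of all genes tested in this contrast. By edgeR 0 were called and by DESeq2 1 was. The median log2 difference of the 16 was 0.12, against 0.07 over all genes. Nrp2, the receptor part that binds Sema3f best, averaged 27.7 ± 12.5 CPM in human CD4+ and 46.6 ± 9.19 CPM in human CD4- cells at day 270, against 41.7 ± 15.9 and 52.7 ± 8.55 CPM at day 60 (SD, n = 3). Nrp1 averaged 23.9 ± 3.82 and 36.9 ± 7.25 CPM at day 270 and 27.9 ± 9.06 and 28.5 ± 3.97 CPM at day 60, human CD4+ cells first. The co-receptor Plxna1 averaged 10.1 ± 5.40 and 14.6 ± 4.25 CPM at day 270 and 5.60 ± 2.06 and 7.02 ± 3.57 CPM at day 60, and Plxna3 averaged 6.99 ± 5.36 and 10.5 ± 5.40 CPM at day 270 and 7.93 ± 3.504 and 6.10 ± 1.65 CPM at day 60. None of these 4 receptor genes passed the test between days, with adjusted p of 0.539 to 0.972 (limma). The plexins Plxna4 (1.35 ± 0.48) and Plxnb2 (1.04 ± 0.23) had larger log2 differences averaged over both populations (SE). Their adjusted p were 0.381 and 0.0729 (limma), and they were named after their values were seen. Of the 16 tested genes of the list, 12 had a difference above 0, as did 7499 of the 12704 genes tested.

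The most abundant semaphorins were membrane-bound. Sema4b averaged 110 ± 41.6 and 116 ± 24.3 CPM at day 270 and 93.4 ± 23.4 and 122 ± 22.8 CPM at day 60, human CD4+ cells first. Sema4d (CD100), which acts on B and T cells, averaged 98.9 ± 19.1 and 137 ± 29.4 CPM at day 270 and 87.0 ± 33.0 and 111 ± 18.0 CPM at day 60. Sema6d averaged 78.3 ± 32.5 and 64.1 ± 10.2 CPM at day 270 and 67.6 ± 12.4 and 66.3 ± 21.3 CPM at day 60. Sema6b was the one gene of the list that limma called between populations over both days, where edgeR and limma-voom called 1 and DESeq2 called 2. It lay at 0 to 0.063 CPM in human CD4+ and 3.66 to 4.05 CPM in human CD4- cells at day 270, and at 0.95 to 2.50 CPM in human CD4+ and 1.37 to 4.48 CPM in human CD4- cells at day 60. Human CD4+ minus human CD4- cells was -1.91 ± 0.43 for Sema6b over both days (SE, adjusted p = 0.0246 with limma). With the specimen as a block the adjusted p was 0.0529, and the call was also lost without any 1 of the day 270 human CD4- libraries, without day 60 human CD4+ library 1 or 2 and without day 60 human CD4- library 1 or 3 (adjusted p up to 0.0874). At day 270 alone its adjusted p was 0.0278 with limma. That call was lost with the block (0.0597), edgeR, limma-voom, a fit to the 2 groups alone and without any 1 of the day 270 human CD4- libraries (adjusted p up to 0.252).

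For the list around Cyp2b10, 9 of 42 genes were in the table, and each of the 9 was tested. None was called between days by limma, edgeR or DESeq2. Of the 9, 5 had an unadjusted p under 0.05, 4 of them higher (Rxra, Por, Cyb5b and Cyb5r3) and 1 lower at day 270, the vitamin D 25-hydroxylase Cyp2r1 (-1.22 ± 0.57, SE, adjusted p = 0.578 with limma). Rxra and Cyp2r1 were named after their values were seen. The median log2 difference was 0.31, with 5 of 9 above 0, beside 7499 of the 12704 genes tested. The electron donors were the abundant ones. Por averaged 51.1 ± 6.55 and 47.6 ± 4.64 CPM at day 270 and 34.4 ± 11.5 and 40.4 ± 6.73 CPM at day 60, human CD4+ cells first, with a log2 difference of 0.43 ± 0.19 averaged over both (SE, adjusted p = 0.542 with limma). Cytochrome b5 (Cyb5a) averaged 138 ± 8.49 and 126 ± 8.94 CPM at day 270 and 153 ± 16.5 and 123 ± 8.21 CPM at day 60. The log2 difference of Cyb5b was 0.31 ± 0.13 and that of the reductase Cyb5r3 0.31 ± 0.15 (SE, adjusted p of 0.506 and 0.571 with limma). Nr1i3, which encodes CAR, and the paralogs Cyp2b9, Cyp2b13, Cyp2b19 and Cyp2b23 are not among the genes of the table and were not analysed here. Any reads that Cyp2b10 shares with these paralogs could be split or lost by the counting, so its level is uncertain to that extent. Of 10 hepatocyte markers, Apoa2 was the one in the table, at 1.68 ± 1.23 and 1.57 ± 1.12 CPM at day 270 and 1.14 ± 0.36 and 1.76 ± 1.42 CPM at day 60.

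For the list around Crim1, 23 of 43 genes of the BMP pathway were in the table and 20 were tested, with 0 called between days (1 at an unadjusted p under 0.05, and 0 by edgeR and DESeq2) and a median log2 difference of 0.10. The BMP-binding protein Twsg1 averaged 96.6 ± 42.2 and 105 ± 8.93 CPM at day 270 and 92.5 ± 11.7 and 117 ± 14.8 CPM at day 60, human CD4+ cells first. The signal transducers Smad4 and Smad5 differed between days by -0.10 ± 0.16 and -0.03 ± 0.17 on the log2 scale (SE). The receptor Bmpr2 averaged 6.63 ± 3.79 and 2.75 ± 1.10 CPM at day 270 and 6.32 ± 3.05 and 2.45 ± 0.68 CPM at day 60. Bmp4 and Bmp7, ligands that Crim1 is known to bind, are not among the genes of the table and were not analysed here.

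For the list around Hepacam2, 16 of 34 adhesion molecules of the immunoglobulin superfamily were in the table and tested. Between days 0 were called by limma and edgeR and 2 by DESeq2, 2 had an unadjusted p under 0.05, and the median log2 difference was 0.09. Hepacam, the related gene that shares its name, is not among the genes of the table and was not analysed here. The most abundant were Alcam (CD166), Icam2 and Icam1, whose log2 differences between days were -0.05 ± 0.15, 0.06 ± 0.13 and 0.07 ± 0.17 (SE). Vcam1 (1.75 ± 0.38) and F11r (1.36 ± 0.36) had larger log2 differences averaged over both populations (SE). Their adjusted p were 0.0729 and 0.171 (limma), and they were named after their values were seen. Of the 16, 12 had a difference above 0, as did 7499 of the 12704 genes tested. Alcam was called lower in human CD4+ cells over both days (-0.60 ± 0.15, SE, adjusted p = 0.0436 with limma), at 104 ± 17.6 CPM in human CD4+ and 161 ± 35.7 CPM in human CD4- cells of day 270 and 109 ± 19.1 CPM in human CD4+ and 162 ± 25.9 CPM in human CD4- cells of day 60. With the specimen as a block its adjusted p was 0.0812. Alcam also lost the call without day 270 human CD4- library 1 or 2, without day 60 human CD4+ library 1 or 2, and without any 1 of the day 60 human CD4- libraries (adjusted p up to 0.147).

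**Figure D4:**
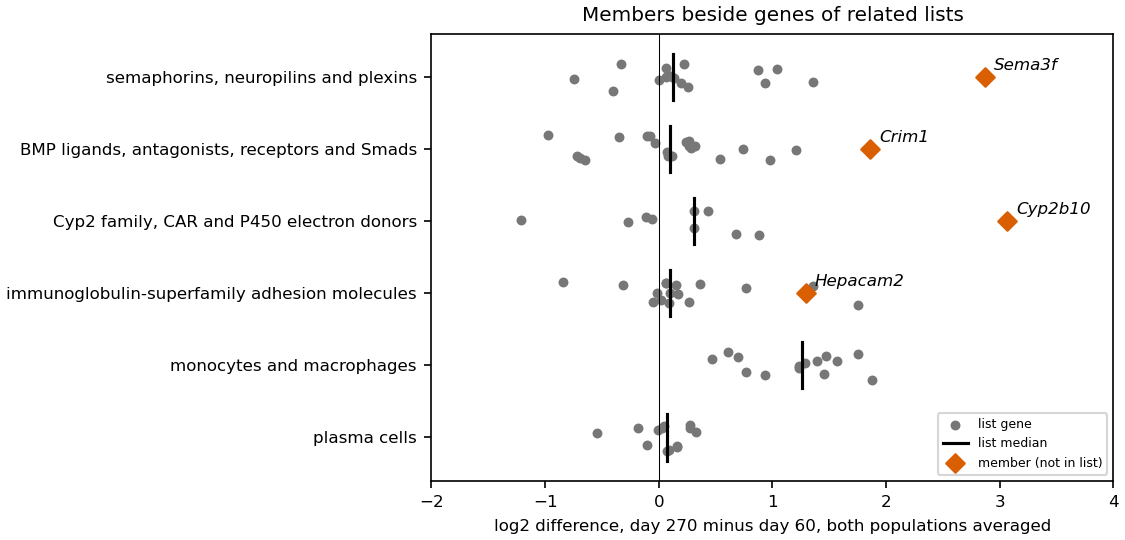
Log2 difference of day 270 minus day 60 averaged over both populations, for each tested gene of 4 pathway lists and 2 marker lists (grey), the median of each list (black line) and Hepacam2, Sema3f, Cyp2b10 and Crim1 (orange), which are in no list. The list medians lie at 0.07 to 0.31, apart from monocytes and macrophages at 1.26, and the orange points lie at 1.29 to 3.07. The orange genes were picked on this contrast, so nothing is read from their distance from the medians. Single list genes lie above Hepacam2, among them Vcam1 (1.75), F11r (1.36) and Plxna4 (1.35).

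Markers of macrophages ran with the members. Each of 14 monocyte and macrophage markers was higher at day 270 averaged over both populations, as were 7499 of the 12704 genes tested. The median log2 difference of the 14 was 1.26, and 1, the haem oxygenase Hmox1, was called (1.23 ± 0.20, SE, adjusted p = 0.0153 with limma). At an unadjusted p under 0.05 there were 9, edgeR called 1 and DESeq2 3. The Hmox1 call was lost without day 270 human CD4- library 2, without day 60 human CD4+ library 2, and without day 60 human CD4- library 2 or 3 (adjusted p up to 0.0904). The sum of the 14 was 480, 584 and 939 CPM in human CD4+ and 285, 584 and 460 CPM in human CD4- libraries 1, 2 and 3 of day 270. At day 60 it was 265, 231 and 379 CPM in human CD4+ and 413, 174 and 143 CPM in human CD4- libraries. The sums of the 2 days overlapped in human CD4- cells. The members were picked on the day contrast, so nothing is read from their lack of overlap beside this. The complement gene C1qa averaged 51.5 and 24.9 CPM in human CD4+ and human CD4- cells of day 270 and 15.3 and 13.6 CPM in those of day 60, and each of the 14 had reads in each group. Vcam1, 1 of the 14, is also in the list of adhesion molecules.

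The correlation of the macrophage sum with the members over the 12 libraries was 0.83 for Sema3f, 0.81 for Hepacam2, 0.74 for Cyp2b10 and 0.71 for Crim1, with the day difference shared by all. After subtraction of group means it was 0.65 for Hepacam2, 0.49 for Sema3f, 0.24 for Crim1 and 0.12 for Cyp2b10. The part of macrophage RNA in the levels of the members was not tested. Of the 13 plasma cell markers, 0 were called between days by limma, edgeR or DESeq2, 0 had an unadjusted p under 0.05, and their median log2 difference was 0.07. The marker lists of B cells, red cells, neutrophils, megakaryocytes, T and NK cells, endothelial, stromal and epithelial cells, hepatocytes, and basophils, mast cells and eosinophils had 0 genes called between days by limma. Averaged over both populations, DESeq2 called 1 of 4 basophil, mast cell and eosinophil markers and 1 of 3 epithelial markers, and limma-voom called 1 of the 4. An unadjusted p under 0.05 (limma) was found in 5 of 12 B cell, 3 of 8 erythroid, 2 of 5 megakaryocyte and 0 of 12 neutrophil markers. It was found in 8.53% of all genes tested. The median log2 difference was 0.93 over 12 neutrophil, 0.91 over 8 erythroid and 0.94 over 5 megakaryocyte markers tested.

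By Pearson correlation of log2(CPM + 0.5) over the 12 libraries, the genes most like Hepacam2 were Lamb1 (0.94), Ppp6r2 (0.94) and Ggh (0.94). Lamb1, a laminin chain of basement membranes, had 0 reads in all 6 day 60 libraries, and at day 270 it had 89 reads over the human CD4+ and 53 reads over the human CD4- libraries. That is at least 29.0-fold and at least 19.1-fold higher, with a floor of 3 reads over the group. Ggh, a gamma-glutamyl hydrolase that acts on folates, averaged 753 ± 348 and 550.5 ± 137 CPM at day 270 and 237 ± 66.3 and 223 ± 120 CPM at day 60, human CD4+ cells first. Sema3f was most like Yap1 (0.96), the coactivator of the Hippo pathway, Tmtc4 (0.95) and Csad (0.94). Yap1 averaged 10.9 ± 5.94 and 3.59 ± 2.42 CPM at day 270 and 0.94 ± 1.29 and 0.49 ± 0.63 CPM at day 60. Like Sema3f, it had a higher mean in human CD4+ than in human CD4- cells on both days.

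Lamb1 (0.93) and Yap1 (0.90) recurred beside Cyp2b10, with the B cell surface protein Cd72 (0.90) between them. Crim1 was most like Il5ra (0.92), a chain of the interleukin-5 receptor, Pcyt1a (0.91), an enzyme of phosphatidylcholine synthesis, and Hmox1 (0.90). Il5ra averaged 23.2 ± 18.8 and 29.4 ± 6.69 CPM at day 270 and 7.90 ± 2.19 and 8.06 ± 3.89 CPM at day 60, human CD4+ cells first. These correlations hold the day difference as well, and the genes were picked as the highest among the named genes tested.

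Of the tested genes beside the members on the chromosome, Axl was the one called between days. Ccdc132 starts 84 bases from the outermost start of Hepacam2 on the other strand, and its log2 difference between days was 0.08 ± 0.20 (SE). On either side of Sema3f, Gnai2 had 0.07 ± 0.11 and Rbm5 0.01 ± 0.20, and Fez2, which overlaps Crim1, had -0.25 ± 0.25. Strn, on the higher side of Crim1, had 0.63 ± 0.27 (SE, adjusted p = 0.512 with limma), Samd9l beside Hepacam2 had 0.23 ± 0.56 and Fam98a on the lower side of Crim1 had -0.00082 ± 0.17. None of these 7 passed the test (limma, adjusted p of 0.512 to 0.9997). The nearest tested gene on the lower side of Cyp2b10, 108915 bases away, was Axl, a receptor tyrosine kinase that macrophages use to take up dying cells. Axl averaged 127 ± 33.7 and 67.5 ± 20.3 CPM at day 270 and 31.9 ± 6.90 and 23.0 ± 17.9 CPM at day 60, human CD4+ cells first (SD, n = 3). Axl rose by 1.85 ± 0.27 on the log2 scale averaged over both populations (SE, adjusted p = 0.00703 with limma). The call was lost without day 60 human CD4+ library 2 (adjusted p = 0.0531), and Axl was singled out after its values were seen. Egln2, on the other side of Cyp2b10, had 0.21 ± 0.16 (SE, adjusted p = 0.775 with limma).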

How the data were processed

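RNA of plasma cells sorted from bone marrow was isolated with RNeasy Micro kits and made into libraries with a TruSeq RNA kit, per the labels' protocols. The submitters' processing notes name GRCm38 and limma, without role or version. The sources used here do not give the aligner, the counter or the annotation. The authors deposited CPM for 14219 genes in 12 libraries, scaled to the same total. A deposited table of 230 genes holds counts. The authors' log2 fold changes and the authors' p-value and FDR stand beside CPM in the deposited comparison tables.

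Reads were recovered from CPM: 100% of the 151342 values that came to less than 1000 reads were whole within 0.05, and 100% of the cells of the count table were matched. The totals cover the genes of the table only, and intervals and floors cover counting error only. limma 3.58.1 in R 4.3.3, with a trended prior, was fitted to log2(CPM + 0.5) of all 12 libraries with 1 coefficient per group and 8 degrees of freedom left. Of the genes, 12704 passed filterByExpr (edgeR 4.0.16, minimum count 10 in at least 3 libraries) and 1515 did not. p-values were two-sided and adjusted by Benjamini-Hochberg over all genes tested, and a gene was called under 0.05. Levels across genes used exon lengths of GENCODE M21. Alternatives included DESeq2 1.42.0, edgeR, limma-voom, TMM scaling, other pseudocounts and filters, library weights, blocks and leaving out each library.

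Human CD4+ and human CD4- libraries of 1 specimen are paired by the specimen number of the labels. Their deviations from the group means correlated with a median of 0.0556 (range -0.0109 to 0.115, 6 pairs), against -0.0194 (range -0.104 to 0.0301) in 12 pairs of different specimens. The members and the gene lists were chosen with earlier results of these data known. Named genes are the members, the 3 genes most correlated with each, the 3 most abundant genes and the called genes of each pathway list, and a fixed list of partners and plasma cell genes. Axl, the other neighbours on the chromosome, C1qa, Apoa2, Rxra, Cyp2r1, Plxna4, Plxnb2, Vcam1 and F11r were named outside this rule.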

Additional observations from a re-analysis of the deposited data

How the results depend on the processing

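None of the 4 members was called in a contrast of human CD4+ with human CD4- cells, or in its difference between days, in the fit as reported or under any other setting run for that contrast, 24 or 25 of them, of which 12 left out 1 library. Their day 270 minus day 60 differences stayed above 0 in each setting run. This sign was largely set by the choice of genes, whose day 270 libraries all lay above their day 60 libraries. The size for Cyp2b10 depended on how low values were treated: in human CD4- cells it was 4.30 with a pseudocount of 0.1, 1.70 with a pseudocount of 2 and 4.97 with limma-voom, and averaged over both populations it was 2.06 with a pseudocount of 2 and 4.03 with limma-voom, where its day 60 libraries hold 0 to 17 reads.

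Some small differences between the populations changed sign. Over both days, Hepacam2 was -0.15 with library quality weights and -0.0090 without both day 270 libraries of replicate 2, and Crim1 was -0.044 with the weights. At day 270, Hepacam2 was -0.0585 with the weights, and Crim1 was 0.0100 with TMM scaling, 0.0697 with edgeR and 0.12 with DESeq2. The change of the Cyp2b10 difference between days was -0.76 with a pseudocount of 0.1, -1.88 with limma-voom, -0.27 with the weights and -0.17 without both day 270 libraries of replicate 2. Leaving out 1 library gave -0.077 to 0.14 for Hepacam2 and -0.089 to 0.26 for Crim1 over both days, -0.35 to 0.82 for Sema3f at day 60, -0.50 to 0.20 for Crim1 at day 270 and -0.42 to 0.86 for the change of Cyp2b10 between days. For these the cause was not tested.

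The specimen as a replicate block changed no call of the members: for Cyp2b10 over both days the difference was again 1.26, with an adjusted p of 0.198 (limma). In the day differences the replicate number, which joins different specimens, was the block instead. In this balanced design neither block can move a difference, only its SE and p, so nothing is read from the unchanged values. Over all genes, the 24 called between days with both populations averaged were 16 with a pseudocount of 0.1, 46 with a pseudocount of 2, 116 with the weights, 142 with DESeq2 and 5 without both day 270 libraries of replicate 2, and leaving out 1 library gave 3 to 58. With scaling by the reads outside ribosomal RNA-like features and Jchain they were 22. The 234 called between populations over both days were 544 with DESeq2 and 629 with the weights, and leaving out 1 library gave 101 to 469. The 61 called between populations at day 270 were 36 with edgeR, 129 with the weights, 256 with DESeq2, 23 without both day 270 libraries of replicate 2 and 0 in a fit to the 2 groups alone (5 to 475 without 1 library). The 24 at day 60 were 163 with the weights, 119 with DESeq2, 44 in a fit to the 2 groups alone, 40 without both libraries and 38 with the specimen block (3 to 56 without 1 library). At day 60 the depth limits Sema3f and Cyp2b10, whose libraries hold 5 to 56 and 0 to 17 reads.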
